A study of Brassica rapa subsp. pekinensis with 4 samples.

Results

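The CBF/DREB1 cold regulators and the factors that act upstream of them or beside them were followed in Chinese cabbage (*Brassica rapa* subsp. *pekinensis*) shoots before and after vernalization. The genes were found through the Arabidopsis match that the deposited tables give for each *B. rapa* gene, written as a Bra identifier. All Bra genes matched to 1 of 10 Arabidopsis loci were taken, namely *CBF1* (AT4G25490), *CBF2* (AT4G25470), *CBF3* (AT4G25480), *CBF4* (AT5G51990), *DDF1* (AT1G12610), *DDF2* (AT1G63030), *ICE1* (AT3G26744), *ICE2* (AT1G12860), *CAMTA3* (AT2G22300) and *ZAT12* (AT5G59820). This gave 20 of the 36698 genes listed. They covered 9 of the 10 loci, since no listed gene had *DDF2* as its match. There were 3 copies each of *CBF2*, *DDF1* and *ICE1*, 2 each of *ICE2* and *CAMTA3*, 4 of *ZAT12*, and 1 each of *CBF1*, *CBF3* and *CBF4*. The name of a copy below is the name of its Arabidopsis match.

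The shoot libraries came from the early-bolting inbred line “4004”, 2 of them from plants never vernalized (0D Ver) and 2 from plants vernalized for 35 days (35D Ver), each from the shoots of several plants. Where 2 values are given for a condition below, they are those of replicates 1 and 2. Both groups had been grown at 23 °C with 16 h of light. By the labels, the 0D Ver plants were 2 weeks old, and the 35D Ver plants, 7 weeks old, had then stood at 5 °C with 12 h of light. The methods put the start of the cold at a younger age than the labels do. Cold, age and day length changed together and cannot be told apart. Neither group carried a transgene. By the methods, all shoots were taken at 1 point of the light/dark cycle, which matters for genes that follow the clock. That cycle differed in day length between the conditions.

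In Arabidopsis, the CBF proteins, also called DREB1, are AP2/ERF transcription factors that bind the CRT/DRE element in the promoters of cold-regulated (*COR*) genes. *CBF1*, *CBF2* and *CBF3* lie side by side there and are transiently induced within minutes to hours of cold, whereas *CBF4* and the DDF genes belong to the same family and are better known from drought, abscisic acid and salt. ICE1 and ICE2 are MYC-type bHLH factors that activate *CBF* genes and also act in stomatal development. CAMTA3 is a calmodulin-binding factor of the rapid cold response, and ZAT12 is a C2H2 zinc finger factor that responds to cold, light, wounding and oxidative stress in parallel with the CBFs.

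The deposited numbers summed to between 17221386 and 23428420 per library. Their lowest value was 1 in each library, so 1 may have been added to each count. They were scaled between libraries to normalized counts and tested with limma on log2(normalized count + 1), a scale on which changes of scarce transcripts come out too small. Adjusted p-values are over the 29691 genes tested, and a gene was called at an adjusted p below 0.05. Sampling noise alone did not account for the gap between replicates, whose counts gave chi-square values per degree of freedom of 9.30 and 10.2. The smallest two-sided p that exact permutation of 4 libraries allows is 0.333, so every call depends on the variance that limma pools over genes. Leaf markers (*RBCS1A*, *RCA* and *CA1* copies) summed to 130479 and 125490 normalized counts under 0D Ver and to 211066 and 163517 under 35D Ver. Of the 7 copies, 3 were called higher, beside 20.1% of all tested genes. Flower organ markers summed to between 370.1 and 606.6. Of 7 tested copies, 3, all of *PI* and none above 23.8 normalized counts, were called higher (20.1% of all tested genes). These *PI* copies passed the filter on low counts only through their 35D Ver counts and could only come out higher. The 4 tested copies of *AP3* and *SEP3* were not called, at log2 fold changes between -0.67 and -0.36. The part of these cell types in the values below was not tested. The 4 listed root marker genes had no deposited value above 4, so the libraries had the markers of green shoots.

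Of the 20 genes, 17 had enough counts to be tested, and the 3 that did not were the *DDF1* copies. Among the 17, 4 were called higher under 35D Ver and 6 lower, or 58.8% in all, against 40.6% of all tested genes. This tally includes *CBF4*, which passed the filter only through its 0D Ver counts and could only come out lower. Without it, 4 were higher and 5 lower among 16 genes. Higher calls took 20.1% of all tested genes and lower calls 20.5%. The higher genes were *CBF1*, the 2 abundant copies of *CBF2* and 1 copy of *CAMTA3*. The lower genes were *CBF4*, 2 copies of *ICE1* and 3 of the 4 *ZAT12* genes. The counts rested on single libraries, with 3 higher and 3 lower without 0D Ver replicate 1, 2 and 4 without 0D Ver replicate 2, 3 and 2 without 35D Ver replicate 1, and 3 and 1 without 35D Ver replicate 2. Of the *ZAT12* genes, Bra006691 and Bra006692 had identical counts in all 4 libraries and were read as 1 measurement, which leaves 9 calls among 16 genes. In 14 of the 17 tested genes the libraries of the conditions did not overlap, 6 with both 35D Ver libraries above both 0D Ver libraries and 8 with both below. Among all tested genes, these shares were 36.0% above and 37.1% below. The members' share of separated genes was thus close to that of the whole transcriptome. The 8 genes below include *CBF4*, which could only come out there, and both genes of the identical pair. With these included, the median log2 fold change of the 17 genes was -0.22, beside -0.01 for all tested genes. A stricter rule for differential expression asks, beside the adjusted p, for a mean normalized count of 500 or more in the higher condition and for an absolute log2 fold change of 1 or more. It was met by 0 of the members, against 1.34% of all tested genes in the higher and 1.75% in the lower direction, or 3.10% in all. With a mean of 50 in place of 500, it was met by *CBF1* in the higher direction and by 3 *ZAT12* genes in the lower, against 4.10% and 5.56% of all tested genes.

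**Figure D1:**
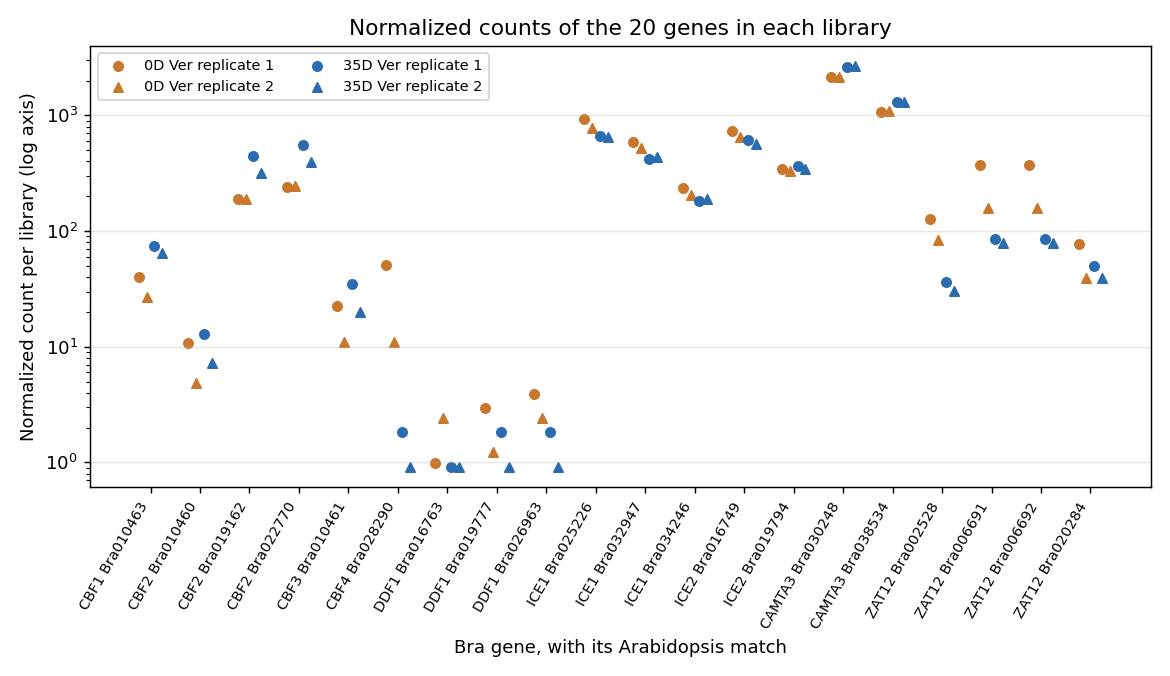
Normalized counts of the 20 genes in each library, on a log axis, with circles for replicate 1 and triangles for replicate 2. The *CAMTA3* copies lie at 1071 normalized counts and above in each library, the *DDF1* copies below 4, and the *CBF4* gene drops from 51.0 and 10.98 to below 2.

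*CBF1* and the 2 abundant *CBF2* copies rose about 2-fold. *CBF1* (Bra010463) had 40.2 and 26.9 normalized counts under 0D Ver, and 74.2 and 64.7 under 35D Ver. Both vernalized libraries lay above both controls, and the mean went from 33.5 ± 9.5 to 69.5 ± 6.7 (SD, n = 2). The log2 fold change was 1.05 (standard error, SE, 0.24, adjusted p = 0.00955 with limma). Only 5.75% of all tested genes had a larger log2 fold change. Without 0D Ver replicate 2, the lower of the control libraries, it was 0.77 with an adjusted p of 0.0540 (limma), so this call needed that library.

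The *CBF2* copy Bra022770 had 241.4 and 244.1 normalized counts under 0D Ver and 549.6 and 397.5 under 35D Ver. The controls were nearly equal and the vernalized libraries were far apart, with both of the latter above. This made a log2 fold change of 0.94 (SE 0.16, adjusted p = 0.00219 with limma). The *CBF2* copy Bra019162 had 190.4 and 189.2 normalized counts under 0D Ver and 443.3 and 315.4 under 35D Ver, the same picture at a lower count. Here the log2 fold change was 0.97 (SE 0.17, adjusted p = 0.00235 with limma). Both calls held in each of the 15 alternative settings, at log2 fold changes between 0.73 and 1.23.

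The remaining copies of this group were scarce. The *CBF2* copy Bra010460 had 10.8 and 4.88 normalized counts under 0D Ver and 12.8 and 7.29 under 35D Ver, and the conditions overlapped. The log2 fold change of 0.36 had a 95% interval from -0.66 to 1.39 (adjusted p = 0.547, limma). It passed the filter on low counts only through the first replicate of each condition. *CBF3* (Bra010461) had 22.6 and 10.98 normalized counts under 0D Ver and 34.8 and 20.1 under 35D Ver. These also overlapped, since 35D Ver replicate 2 lay below 0D Ver replicate 1. For *CBF3* the log2 fold change was 0.71 with an interval from -0.20 to 1.62 (adjusted p = 0.187, limma), and the intervals of both genes held 0 as well as the 1.05 of *CBF1*. Summed over the 5 copies of *CBF1*, *CBF2* and *CBF3*, the normalized count went from 490.7 ± 20.8 to 960 ± 219 (SD, n = 2), a ratio of the means of 1.96. Whole shoots were sampled, so a change in the number of cells with a transcript and a change in its amount per cell cannot be told apart. This holds here and for the genes below.

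*CBF4* (Bra028290), the family member known in Arabidopsis for its response to drought and abscisic acid, went the other way. It had 52 and 9 deposited counts in the 0D Ver replicates and 2 and 1 under 35D Ver. The normalized counts were 51.0 and 10.98, against 1.83 and 0.912. Both vernalized libraries were near the lowest value that the tables hold, and the controls differed from each other by 2.12 on the log2 scale. *CBF4* fell with a log2 fold change of -3.42 (SE 0.65, adjusted p = 0.00468 with limma), and 0.488% of all tested genes had a smaller one. The size depended on the pseudocount, with -4.09 at a pseudocount of 0.1 and -1.66 at 10 (adjusted p = 0.0416, limma). As a ratio of summed counts at equal scaling, 0D Ver exceeded 35D Ver 24.2-fold, with an exact 95% interval from 7.90 to 120.6 that covers counting error only. With 1 subtracted from each value, the counts were 59 against 1 and the ratio 70.2 (interval from 12.1 to 2821). The gene passed the filter only because of its counts under 0D Ver, so a gene with these counts could enter the test only by being higher there. Without 35D Ver replicate 2, the log2 fold change was -3.12 and the adjusted p 0.0919 (limma). Without either 0D Ver library, the gene no longer passed the filter.

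The *DDF1* copies, whose Arabidopsis relative lowers gibberellin levels under salt stress, were at the limit of detection. Bra026963 had 4, 2, 2 and 1 deposited counts in 0D Ver replicates 1 and 2 and 35D Ver replicates 1 and 2. The values of Bra016763 and Bra019777 lay between 1 and 3. A count of 0 in a library allows an expected count of up to 3. Differences among counts this low could not be resolved at this depth, so no fold change is given. In neither condition did a copy reach the counts that the filter asks for.

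**Figure D2:**
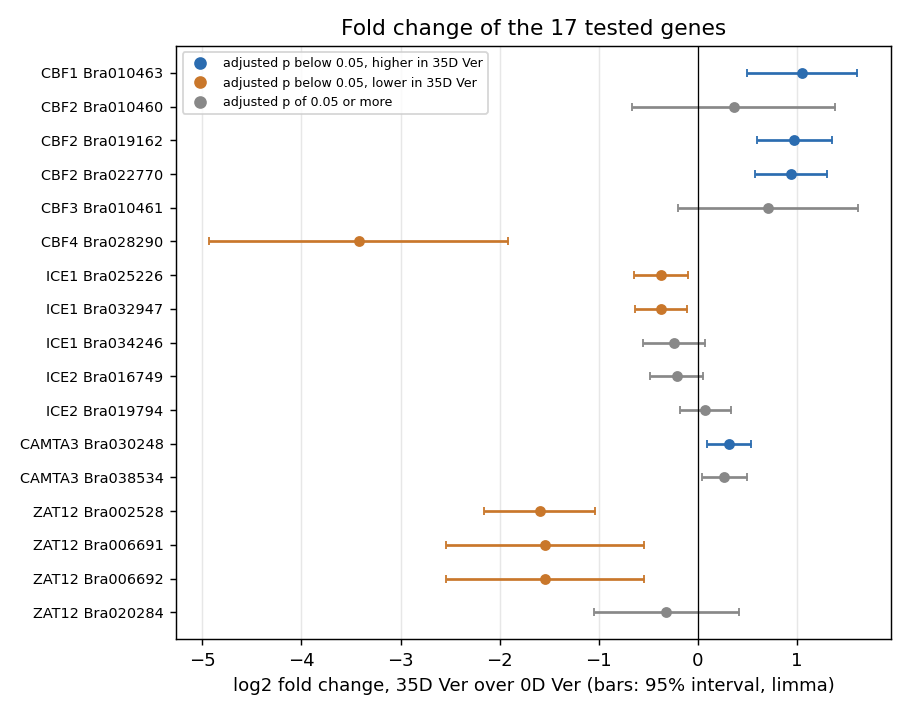
Log2 fold change of 35D Ver over 0D Ver for the 17 tested genes, with 95% intervals from limma and colours for the call. *CBF1* at 1.05 and *CBF4* at -3.42 are the ends of the range, while the *ICE1*, *ICE2* and *CAMTA3* copies lie between -0.38 and 0.31.

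The *ICE1* copies Bra025226 and Bra032947 fell to ratios of 0.768 and 0.772 of their 0D Ver means, and the remaining copy was not called. Bra025226 had 928.3 and 778.7 normalized counts under 0D Ver and 659.5 and 650.9 under 35D Ver. The vernalized libraries were close together and below both controls. This gave a log2 fold change of -0.38 (SE 0.12, adjusted p = 0.0344 with limma). Bra032947 fell by nearly the same amount, from 584.8 and 527.3 normalized counts to 417.7 and 441.2, with a log2 fold change of -0.37 (SE 0.11, adjusted p = 0.0307 with limma). Bra034246, the copy with the fewest reads, had 237.5 and 205.0 normalized counts under 0D Ver and 182.3 and 190.5 under 35D Ver. It was also lower in both vernalized libraries, but its log2 fold change of -0.24 had an interval from -0.56 to 0.07 (adjusted p = 0.191, limma). Neither call was firm. For Bra025226, the adjusted p was 0.192 without 0D Ver replicate 1, 0.0968 without 35D Ver replicate 1 and 0.102 without 35D Ver replicate 2 (limma). For Bra032947, it lay between 0.0526 and 0.149 with any library left out (limma).

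*ICE2*, which acts redundantly with *ICE1* in Arabidopsis, gave no call. Bra016749 had 735.9 and 644.4 normalized counts under 0D Ver and 617.3 and 569.8 under 35D Ver, lower in both vernalized libraries, with a log2 fold change of -0.22 (interval from -0.48 to 0.05, adjusted p = 0.172, limma). Bra019794 had 344.4 and 330.8 under 0D Ver and 364.5 and 347.3 under 35D Ver. At 0.08, the log2 fold change had an interval from -0.18 to 0.34 (adjusted p = 0.624, limma), so changes of more than 0.34 on the log2 scale lay outside the interval. The partners of ICE1 and ICE2 in the stomatal lineage, *SPCH*, *MUTE* and *FAMA*, had 9 tested copies, at log2 fold changes between -0.41 and 0.52. Of these copies, 0 were called with limma or limma voom, beside 40.6% of all tested genes with limma. An unadjusted p below 0.05 (limma) was found for 1 of them. Their summed normalized count was 916.5 and 941.0 under 0D Ver and 803.3 and 875.2 under 35D Ver. The part of stomatal lineage cells in the *ICE1* values was not tested.

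The replicates of the *CAMTA3* copies lay close together in both conditions, and 1 copy was called higher. Bra030248 had 2127 and 2143 normalized counts under 0D Ver and 2639 and 2674 under 35D Ver. The replicates nearly coincided, and the vernalized libraries were higher. The log2 fold change of 0.31 (SE 0.10, adjusted p = 0.0338 with limma) was called. Bra038534 had 1071 and 1098 normalized counts under 0D Ver and 1294 and 1315 under 35D Ver, again without overlap. Its log2 fold change of 0.27 was nearly as large (interval from 0.04 to 0.49), but its adjusted p of 0.0624 (limma) missed the threshold. The call of Bra030248 was lost with any single library left out, at adjusted p-values between 0.0667 and 0.138 (limma), although its log2 fold change then only moved between 0.30 and 0.35.

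*ZAT12* transcripts were lower under 35D Ver in 3 of the 4 genes. Bra002528 had 126.6 and 83.0 normalized counts under 0D Ver and 36.6 and 30.1 under 35D Ver. Both vernalized libraries lay well below both controls. It fell with a log2 fold change of -1.60 (SE 0.25, adjusted p = 0.00136 with limma), and this call held in each of the 15 alternative settings. Bra006691 and Bra006692 each had 374.8 and 157.4 normalized counts under 0D Ver and 86.1 and 79.3 under 35D Ver. Their controls differed more than 2-fold, yet the lower control was still above both vernalized libraries. The log2 fold change was -1.54 (SE 0.40, adjusted p = 0.0290 with limma). The adjusted p was 0.0680 with the weights of limma voom, 0.357 without 35D Ver replicate 1 and 0.390 without 35D Ver replicate 2 (limma), while the log2 fold change was -1.59, -1.58 and -1.48 in the same order. Without 0D Ver replicate 1, the higher control, the log2 fold change was -0.93 (adjusted p = 0.0127, limma).

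The remaining *ZAT12* gene, Bra020284, had 77.5 and 39.1 normalized counts under 0D Ver and 49.5 and 39.2 under 35D Ver. The vernalized libraries lay within the range of the controls or just above its lower end. The log2 fold change was -0.32 with an interval from -1.05 to 0.42 (adjusted p = 0.458, limma), and without 0D Ver replicate 1 it was 0.16. Sets of genes with the same count in all 4 libraries, like Bra006691 and Bra006692, were rare. Among 26497 genes with at least 100 counts in total there were 74 such sets, with 155 genes, and in 72 of them all genes had the same Arabidopsis match. How reads that fit several genes were counted is not given in the sources used here, so the reads of such copies may be the same reads or may have been divided between them.

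The copies of 1 locus mostly kept their shares of the reads. Bra022770 held between 54.6% and 55.7% of the *CBF2* counts in the 4 libraries, and the 95% Wilson intervals of each library covered the values of the others. Bra030248 held between 66.1% and 67.1% of the *CAMTA3* counts, and Bra025226 between 50.8% and 53.0% of the *ICE1* counts. At *ICE2* the share of Bra019794 was 31.9% and 33.9% under 0D Ver and 37.1% and 37.9% under 35D Ver. These did not overlap between the conditions, although the Wilson interval of 0D Ver replicate 2 reached from 30.7% to 37.3%.

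At *ZAT12* the shares shifted more than at the other loci. With the identical pair counted once, Bra020284 held 13.4% (Wilson interval 10.9% to 16.4%) and 14.0% (10.1% to 19.1%) of the counts under 0D Ver. It held 28.7% (22.7% to 35.6%) and 26.4% (20.2% to 33.6%) under 35D Ver, and the Wilson intervals of the conditions did not overlap. With all 4 genes in the sum, the shares were 8.13% and 8.94% against 19.1% and 17.2%. The intervals cover counting error only, exact permutation of the libraries again allows no p below 0.333, and shares of reads are not corrected for gene length.

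**Figure D3:**
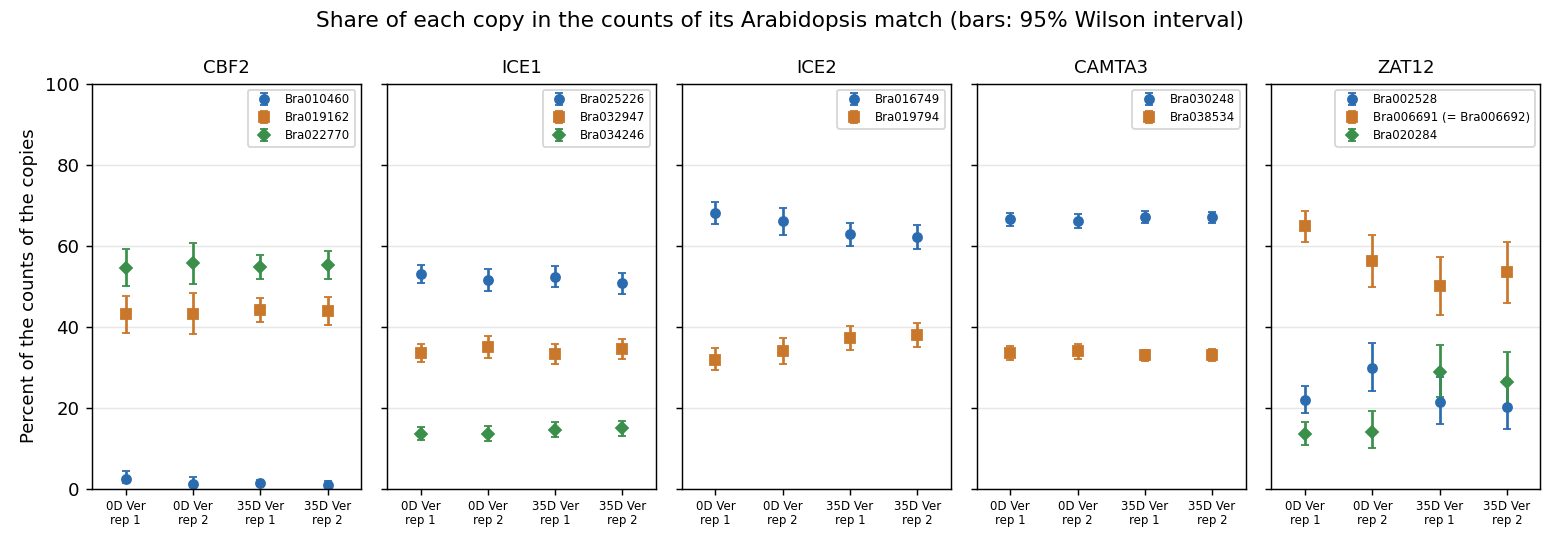
Share of each copy in the summed counts of its Arabidopsis match, in percent and per library, with 95% Wilson intervals. The *ICE1*, *CAMTA3* and abundant *CBF2* copies keep their shares. The *ZAT12* gene Bra020284 goes from 13.4% and 14.0% under 0D Ver to 28.7% and 26.4% under 35D Ver.

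The replicates themselves differed in several stress-responsive genes, not all in the same direction. Under 0D Ver, all *ZAT12* genes were higher in replicate 1 than in replicate 2, by 0.60 to 1.25 on the log2 scale, and *CBF4* by 2.12. *CBF1*, *CBF3* and the scarce *CBF2* copy (Bra010460) were higher there as well, by 0.57, 0.98 and 1.00. Bra010460 passed the filter only through replicate 1 of each condition, so it could only come out higher in replicate 1. The abundant *CBF2* copies differed by 0.02 at most, and the *CAMTA3* copies by 0.04 at most. In 4 of the 17 tested genes the 0D Ver replicates were at least 1 apart on the log2 scale, as they were in 1.43% of all tested genes. These 4 were Bra010460, whose direction the filter had set, Bra028290 and the identical pair Bra006691 and Bra006692. Of the 15 tested copies of factors known from Arabidopsis to be induced early in the cold beside the CBFs (such as *ZAT10*, *ERF5* and *RAV1*), 14 were also higher in 0D Ver replicate 1, with a median difference of 0.56. Copies of CBF targets mostly went the other way, with 1 of 8 higher in 0D Ver replicate 1 and a median difference of -0.31. Among all tested genes, 49.5% were higher in that library. The part of this library in the lower values of *ZAT12* and *CBF4* under 35D Ver was not tested beyond leaving it out, and Bra002528 was still lower without it, with a log2 fold change of -1.31 (adjusted p = 0.00995, limma).

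Under 35D Ver, all 5 copies of *CBF1*, *CBF2* and *CBF3* were higher in replicate 1 than in replicate 2, by 0.19 to 0.77 on the log2 scale. Among them, the scarce *CBF2* copy Bra010460 could only come out so, because of the filter. Replicate 1 of 35D Ver was also the higher library for 8 of 8 copies of CBF targets, with a median difference of 0.57. It was the higher for 7 of 7 leaf marker copies too, with a median difference of 0.51. Among all tested genes, 51.7% were higher in it. Libraries were compared here 1 against 1, so these differences have no replicate of their own.

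**Figure D4:**
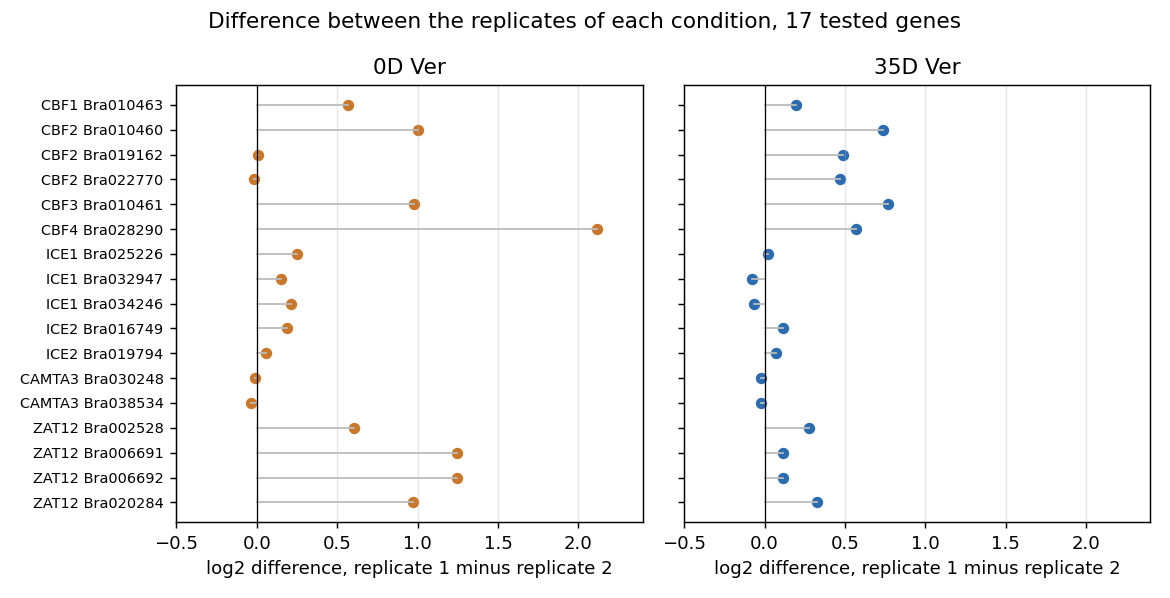
Log2 difference between replicate 1 and replicate 2 of each condition for the 17 tested genes, with 1 point per gene. Under 0D Ver the *ZAT12* genes and *CBF4* lie between 0.60 and 2.12, and the *CAMTA3* copies lie near 0 in both conditions.

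The genes around the CBF module were examined through 4 further lists of Arabidopsis loci. The targets of the CBFs were the most uniform. Of 10 target loci, 5 had a match, with 8 copies. Under 35D Ver, 8 of 8 copies were called higher (20.1% of all tested genes), with a median log2 fold change of 2.95. The weakest call had a log2 fold change of 0.39 and an adjusted p of 0.0498 (limma). With limma voom, with a pseudocount of 0.1 or 10, or with 1 subtracted from each value, 7 were called. The same number was called with a replicate block, without the trend and robust moderation, and with at least 10 counts required in every library. The remaining settings that keep all libraries gave 8. With a single library left out, 7 or 8 were called. The *COR15B* copy Bra000263, which encodes a chloroplast protein that protects membranes during freezing, went from 136.4 and 195.3 normalized counts to 8720 and 5882 (log2 fold change 5.45, adjusted p = 1.83e-05, limma). *COR6.6* (Bra008661) went from 50.04 and 86.7 to 2358 and 1495 (log2 fold change 4.81, adjusted p = 0.000314, limma). *GOLS3* (Bra031663), a galactinol synthase of the raffinose pathway, went from 271.8 and 360.0 to 4096 and 2767 (log2 fold change 3.42, adjusted p = 4.21e-05, limma). These log2 fold changes stand beside those of 0.94 to 1.05 for the called *CBF1* and *CBF2* copies in the same libraries.

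Factors known from Arabidopsis to act on *CBF* promoters had 22 tested copies, with a median log2 fold change of 0.49. Of these, 14 were called higher and 1 lower (20.1% and 20.5% of all tested genes). Most of the higher calls were copies of clock genes, and others were copies of *SOC1*. The part of day length and clock phase in them was not tested. The largest increases were those of the clock gene *LHY*, which activates *CBF* genes in Arabidopsis. Its copy Bra030496 went from 33.4 and 26.9 normalized counts to 1344 and 1263 (log2 fold change 5.4, adjusted p = 3.91e-07, limma), and Bra033291 had a log2 fold change of 5.07. The flowering integrator *SOC1*, described as a repressor of *CBF* genes in Arabidopsis, rose as well, with log2 fold changes of 3.58 for Bra004928 and 3.49 for Bra000393. Factors listed as activators and as repressors of *CBF* genes were thus both among the genes called higher.

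Upstream cold signalling (protein kinases such as *OST1* and *MPK6*, ubiquitin and SUMO ligases such as *HOS1* and *SIZ1*, and the other *CAMTA* genes) was called about as often as the transcriptome as a whole. Of 30 tested copies, 7 were called higher and 6 lower, where 20.1% and 20.5% of all tested genes were. Their log2 fold changes lay between -0.88 and 0.74, with a median of 0.06. The lower calls include 2 copies of 1 locus with identical counts in all 4 libraries, each counted here. The calls in this list depended on single libraries, with 5 higher and 3 lower without 0D Ver replicate 1, 7 and 3 without 35D Ver replicate 1, and 4 and 2 without replicate 2 of either condition.

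The early cold-induced factors beside the CBFs, to which *ZAT12* also belongs, had calls in both directions. Of 15 tested copies, 2 were called higher and 6 lower, beside 20.1% and 20.5% of all tested genes, with a median log2 fold change of -0.72. *ZAT10* (Bra010922), a zinc finger factor of the abiotic stress response, had 317.9 and 188.0 normalized counts under 0D Ver and 135.6 and 75.7 under 35D Ver (log2 fold change -1.26, adjusted p = 0.0322, limma). *ERF5* (Bra024953) had 80.5 and 31.7 against 21.1 and 22.8 (log2 fold change -1.17, adjusted p = 0.0456, limma). *MYB73* fell in the copies Bra032176 and Bra011749, with log2 fold changes of -1.11 and -1.07 (adjusted p = 0.00418 and 0.000200, limma). Its other copies were called lower too, so most of the lower calls came from this 1 locus. The median of the list, -0.72, was also the value of a *MYB73* copy. The median depended on the 0D Ver libraries, with -0.32, 3 genes higher and 4 lower without replicate 1 and -1.0, 1 higher and 10 lower without replicate 2. Without 35D Ver replicate 1, 3 were called higher and 5 lower, and without 35D Ver replicate 2, 2 and 4. Of the 0D Ver libraries, replicate 1 was the one with the higher counts of these genes. Neither the call of *ZAT10* nor that of *ERF5* was firm. For *ZAT10* (Bra010922), the adjusted p was 0.0865 without 0D Ver replicate 1, 0.113 without 35D Ver replicate 2 and 0.0548 without the trend and robust moderation (limma). For *ERF5* (Bra024953), it was 0.264 without 0D Ver replicate 1 (log2 fold change -0.53), 0.220 without 35D Ver replicate 1 and 0.180 without 35D Ver replicate 2 (limma). It was also above 0.05 with limma voom, with a pseudocount of 10, with no filter and without the trend and robust moderation, at 0.0515 to 0.0932.

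**Figure D5:**
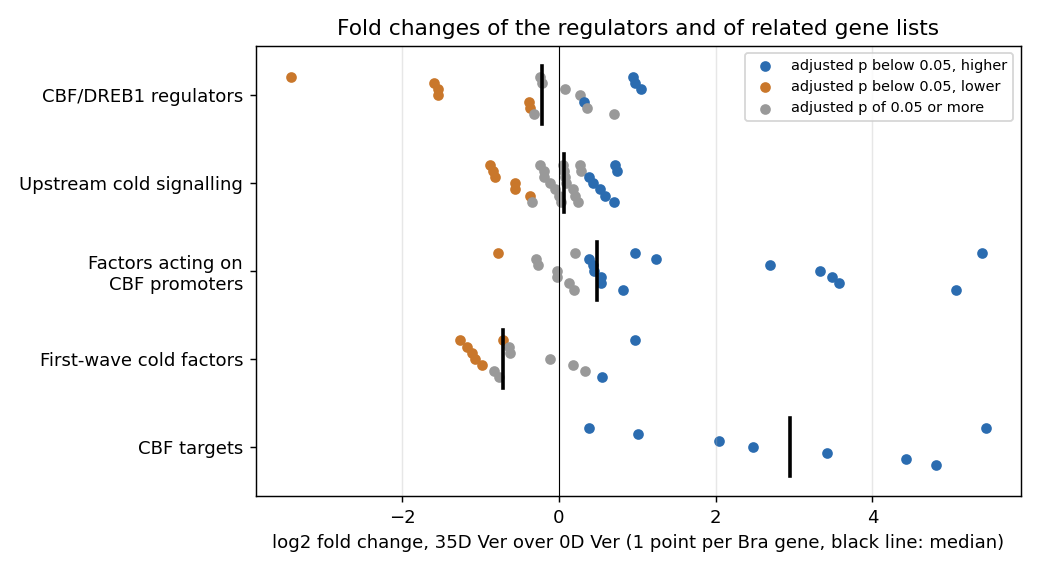
Log2 fold change of 35D Ver over 0D Ver for the tested copies of the CBF/DREB1 regulators and of the 4 other lists, with 1 point per gene, colours for the call and a black line at the median. The medians are -0.22, 0.06, 0.49, -0.72 and 2.95 from top to bottom.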

How the data were processed

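Shoot polyA RNA of line “4004” was sequenced in 2 libraries per condition, and condition and replicate were taken from the sample titles. The authors trimmed the reads and used Bowtie2 to map them to the BRAD gene set of *B. rapa*, and they deposited whole-number counts of reads per gene, without normalization. The deposited counts carry commas, which were removed, and their lowest value is 1. Because they could not be recorded as plain counts, the test is limma 3.58.1 in R 4.3.3 and not a count model. Kept for the test were 29691 genes, those whose counts, brought to the depth of the median library, reached 10 in 2 or more libraries and 15 in total. Counts were divided by TMM size factors (trims of 0.3 and 0.05), which ran from 0.819 to 1.10. Condition was the only term, with a mean-variance trend, robust moderation and Benjamini-Hochberg adjustment, and the steps were tested on simulated data. The methods call the replicates independent, while the labels only number them. The members, lists and tests were chosen with earlier results of these data known. All 20 members are named, and of each other list at most the 4 largest called increases and decreases of at least 1 on the log2 scale. No gene position, length or sequence was used here, since the gene table at hand is of an assembly with other identifiers. Plots were drawn with matplotlib 3.10.9.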

Additional observations from a re-analysis of the deposited data

How the results depend on the processing

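Each comparison was repeated under 15 other settings, of which the crossed pairing was added after seeing the data. Of 249 values of the tested members, 220 kept their direction and their call, 26 lost the call and 1 gained it. The sign changed in 2 cases. With 1 library left out, the log2 fold change of Bra020284 ran from -0.80 (without 0D Ver replicate 2) to 0.16 (without 0D Ver replicate 1), and that of Bra010460 from -0.14 (without 0D Ver replicate 2) to 0.74 (without 35D Ver replicate 2). Over the 11 settings that keep all libraries, 3 to 5 members were called higher and 4 to 6 lower. Leaving out 1 library gave 2 to 3 higher and 1 to 4 lower, and 4194 to 4654 higher and 3871 to 4880 lower among all genes. The lone library of a condition is then assumed to vary like the others. The stricter rule with a mean of 500 left 0 members higher and 0 lower, against 10 with an adjusted p below 0.05 with limma, and 399 genes higher and 521 lower in all. With a mean of 50 it left 1 member higher and 3 lower, and 1217 and 1651 genes. *CBF4* could not be tested without a 0D Ver library or with at least 10 counts required in every library.

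Libraries of both conditions share the numbers 1 and 2, but same-numbered deviations had a correlation of -0.17. A replicate block left 3 members called higher and 4 lower, and 5035 and 5299 of all genes. With the block crossed, 5 members were higher and 6 lower, and 7056 and 7261 of all genes. Depth limited the *DDF1* copies, the scarce *CBF2* copy and *CBF4* under 35D Ver. The median log2 fold change of all genes was -0.014 as reported and between -0.022 and 0.001 in these settings.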
